A study of Mus musculus with 6 samples.

Results

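The 5 genes described here are long noncoding RNAs (lncRNAs): Malat1, Neat1 and Kcnq1ot1, whose transcripts stay in the nucleus, and Gas5 and Snhg1, which host small nucleolar RNAs (snoRNAs) in their introns. They were taken by symbol from the 32285 genes listed in the deposited matrices, and all 5 were present. Their unique molecular identifiers (UMIs, 1 for each captured RNA molecule) were followed in 6 single-cell libraries of brain myeloid cells. Live cells positive for CD45 and CD11b had been sorted from the whole brains of 3 male C57BL/6J mice at postnatal day 89, after cold Dounce homogenization. Mouse 2 was processed with a cocktail of the inhibitors actinomycin D, triptolide and anisomycin (DNC-INHIB), and mice 1 and 3 without it (DNC-NONE). Each mouse gave 1 library with kit version V3.0 of the 10X Genomics 3′ chemistry and 1 with V3.1, so the number of independent animals is 3.

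The libraries held between 3689 and 6130 barcodes and between 6275898 and 18872816 UMIs. The V3.0 library of mouse 3 stood apart: 21.5% of its barcodes passed the filters (from 1000 to 4000 genes, UMIs up to 12000, mitochondrial share up to 15%), against 70.0% to 76.8% in the other 5 libraries, and its median barcode held 809 UMIs, against 3031 to 3409. Pairs of libraries shared between 1 and 14 barcode sequences, over 15 pairs. Over all 29412 barcodes, Malat1 took 4.78% of 83133615 UMIs. The other members were sparse, with 17143 UMIs for Kcnq1ot1, 14906 for Gas5, 5947 for Neat1 and 2923 for Snhg1.

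The 19725 passing barcodes were clustered without the 5 members and without the other lncRNAs of the gene lists, and the clusters were named by marker genes. There were 18959 microglia-like, 152 border macrophage-like and 337 neutrophil-like cells. All 12 neutrophil markers were detected in the neutrophil-like cells, where they took 39.2% to 47.4% of the UMIs of a library, and all 12 microglial markers in the microglia-like cells, where they took 3.21% to 3.41%. All 10 border macrophage markers were detected in the border macrophage-like cells at 0.295% to 0.616% of UMIs, while the microglial markers, several of which macrophages also express, took 0.543% to 1.33% there. Detection alone did not separate the classes, and the same marker lists had named the clusters. All 12 neutrophil and all 10 border macrophage markers were also detected in microglia-like cells, at 0.0754% to 0.153% and 0.0207% to 0.0339% of UMIs. All 12 microglial markers were also detected in neutrophil-like cells, at 0.212% to 0.694%. A rule on marker UMIs alone gave the same class to 99.7% of the microglia-like, 73.0% of the border macrophage-like and 81.0% of the neutrophil-like cells. The border macrophage-like cells numbered 14 to 55 a library, except for 5 in V3.0 of mouse 3.

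Malat1 is concentrated in nuclear speckles, the compartments where splicing factors are stored, and Neat1 is the architectural RNA around which paraspeckles assemble. Malat1 and the long form of Neat1 are not polyadenylated in the usual way: RNase P cuts them ahead of a tRNA-like structure, and the new end folds into a triple helix with a genome-encoded stretch of A. Kcnq1ot1 is an unspliced, imprinted RNA transcribed from the paternal chromosome against the Kcnq1 gene, and it silences neighbouring genes such as Cdkn1c on the same chromosome. Gas5 and Snhg1 are spliced transcripts whose introns release box C/D snoRNAs, guides for methylation of ribosomal RNA. What is left of them after splicing is exported, engaged by ribosomes and removed by nonsense-mediated decay, and like ribosomal protein mRNAs Gas5 carries a 5′ terminal oligopyrimidine (TOP) start.

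The 3′ ends are shown because the libraries were primed on poly(A), so that the sequence near a transcript's end bears on what can be counted. In the GENCODE vM21 annotation of GRCm38 (mm10), Malat1 (ENSMUSG00000092341) spans chr19:5795690-5802672 on the minus strand, and its longest transcript is a single exon of 6983 bases. Neat1 (ENSMUSG00000092274) lies on the same chromosome and strand at chr19:5824708-5845478, with a long transcript of 20771 bases and a short one of 3004 bases. The lines below give bases 6598 to 6701 of the longest Malat1 transcript (chr19:5795972-5796075) and the last 100 bases of the long Neat1 transcript (chr19:5824708-5824807). Capitals mark the 3 stretches, of 13, 16 and 11 bases, that stand in both.
Malat1: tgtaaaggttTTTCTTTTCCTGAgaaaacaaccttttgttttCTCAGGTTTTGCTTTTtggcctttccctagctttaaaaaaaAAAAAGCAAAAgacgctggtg
Neat1, long form: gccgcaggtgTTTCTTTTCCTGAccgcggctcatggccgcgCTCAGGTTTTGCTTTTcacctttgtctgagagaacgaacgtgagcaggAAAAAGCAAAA
The T-rich stretches and the A-rich stretch are the parts that pair in the triple helix. Malat1 holds an unbroken run of 12 A at bases 6674 to 6685, the only run of 10 or more in that transcript, and the long Neat1 transcript holds none of that length.

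The short Neat1 form and Kcnq1ot1 end differently. The lines below give the last 60 bases of the short Neat1 transcript (chr19:5842307-5842366) and of Kcnq1ot1 (chr7:143203458-143203517), with the polyadenylation signal AATAAA in capitals.
Neat1, short form: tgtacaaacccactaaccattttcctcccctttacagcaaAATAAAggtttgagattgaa
Kcnq1ot1: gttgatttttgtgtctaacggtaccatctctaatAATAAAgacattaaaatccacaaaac
Kcnq1ot1 (ENSMUSG00000101609) is annotated as 1 exon of 93092 bases at chr7:143203458-143296549, on the minus strand inside Kcnq1, which is on the plus strand. It holds 10 runs of 10 or more A, the longest of 41. The matrices give a UMI count per gene, so a UMI from the 3′ end of Kcnq1ot1 and one from an internal run of A cannot be told apart, nor can the 2 forms of Neat1.

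The 5′ starts of Gas5 and Snhg1 are shown with those of Malat1 and of Rack1, a component of the small ribosomal subunit that is compared with Gas5 further on. Gas5 (ENSMUSG00000053332) spans chr1:161034422-161038539 on the plus strand with 10 annotated snoRNA genes inside it, 2 of which are overlapping entries for Snord80. Snhg1 (ENSMUSG00000108414) spans chr19:8723475-8726443 on the plus strand with 8. The lines below run from 20 bases before to 50 bases from the start in RefSeq (GRCm38.p6), and capitals mark the unbroken C and T run that begins at the start.
Gas5, chr1:161035146-161035215: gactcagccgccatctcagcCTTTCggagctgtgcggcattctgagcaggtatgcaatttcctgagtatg
Snhg1, chr19:8723467-8723536: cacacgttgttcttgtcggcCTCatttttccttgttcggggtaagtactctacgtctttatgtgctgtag
Rack1, chr11:48800340-48800409: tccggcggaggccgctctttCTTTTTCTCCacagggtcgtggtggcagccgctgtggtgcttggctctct
Malat1, chr19:5802623-5802692: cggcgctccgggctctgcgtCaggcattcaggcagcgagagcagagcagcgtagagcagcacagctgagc
The run had 5 bases in Gas5, 3 in Snhg1, 10 in Rack1 and 1 in Malat1. A start that begins with C and goes on with at least 4 C or T was found in 823 of 32851 RefSeq starts (2.51%), in 13 of 75 starts of ribosomal protein genes (17.3%) and in 1 of the 5 entries for members, that of Gas5. Neat1 was not matched in that table.

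In microglia-like cells the members were close to constant over the 3 mice. Levels are given as CPM, the UMIs of a gene in every 1000000 UMIs of the same cells. Malat1 stood at 46865 ± 2109 CPM (mean ± SD, n = 3 mice, both libraries of a mouse summed), with 48632 in mouse 1, 44531 in mouse 2 and 47431 in mouse 3. Neat1 stood at 45.9, 49.8 and 45.2 CPM in the same order, and Kcnq1ot1 at 201, 203 and 216. Mouse 2, the mouse with inhibitors, was lowest for Malat1 and highest for Neat1, and mouse 3 was highest for Kcnq1ot1. Gas5 stood at 188, 183 and 179 CPM and Snhg1 at 38.7, 37.3 and 35.7. A 3′ UMI count is not divided by transcript length, and these levels order the cell classes and libraries for each gene rather than the genes among themselves.

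At least 1 Malat1 UMI was found in 99.98% of the 18959 microglia-like cells. At their median depth of 3507 UMIs, 45.2% had a UMI of Gas5, 35.4% of Kcnq1ot1, 14.3% of Neat1 and 11.9% of Snhg1. After each cell was drawn down to 2000 UMIs, which left out 761 shallower cells, these shares were 29.4%, 25.8%, 8.74% and 7.11%. As gauges of RNA from other sources, the neuronal gene Snap25 had a UMI in 0.200% of the same cells, the neuronal lncRNA Meg3 in 0.0105% and Xist, the X-inactivation RNA of female cells, in 0.0264%. All 4 sparse members were far above these gauges.

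Between the cell classes, Neat1 was lowest in microglia-like cells in every mouse and library. With both libraries of a mouse summed, it was highest in neutrophil-like cells of every mouse. In neutrophil-like cells it stood at 323, 284 and 285 CPM in mice 1, 2 and 3, and in border macrophage-like cells at 219, 146 and 141, against 45.9, 49.8 and 45.2 in microglia-like cells. The 3 ranges over mice did not overlap. By library the border macrophage-like range (55.2 to 245) overlapped the neutrophil-like range (194 to 408), and in the V3.0 libraries of mice 1 and 2 the border macrophage-like value was the higher one, at 245 against 239 and 198 against 194. Within a mouse the level was 5.72 to 7.03 times that of microglia-like cells in neutrophil-like cells and 2.93 to 4.78 times in border macrophage-like cells. By edgeR's quasi-likelihood test on UMIs summed per mouse and class, with mouse as a block and scaling by trimmed means (TMM), the log2 fold change was 2.16 ± 0.189 (SE, n = 3 mice, adjusted p = 1.26e-12) for border macrophage-like cells. For neutrophil-like cells it was 3.95 ± 0.134 (SE, n = 3 mice, adjusted p = 3.35e-27). The difference between border macrophage-like and neutrophil-like cells was not tested. At 2000 UMIs per cell, Neat1 was found in 8.74% of microglia-like, 21.7% of border macrophage-like (exact 95% interval 15.4% to 29.1%) and 41.2% of neutrophil-like cells (35.9% to 46.7%). A UMI of Snap25 was found in 0 of the 337 neutrophil-like cells, where 3 cells, or 0.890%, is the limit on the share of cells with a UMI and not on the share that express the gene.

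Malat1 ran the other way in CPM. It stood at 17769, 12544 and 13419 CPM in neutrophil-like cells of mice 1, 2 and 3, and 41346, 35645 and 35666 in border macrophage-like cells. Every neutrophil-like value was below every border macrophage-like value, and those were below the lowest microglia-like value of 44531. The test, which removes the shift of most genes by TMM, put border macrophage-like cells level with microglia-like cells (log2 fold change 0.04 ± 0.143, SE, adjusted p = 0.889, edgeR). For neutrophil-like cells it gave a log2 fold change of -0.41 ± 0.144 (SE, adjusted p = 0.0136, edgeR), which is inside the fold threshold of 0.58 on the log2 scale. Malat1 was called lower there under 2 of 15 alternatives, with classes from marker UMI shares and with library totals. Of the 337 neutrophil-like cells, 41 passed the marker rule for microglia, and their part in the value was not tested.

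How the classes are scaled matters for these values. The 12 neutrophil markers took 39.2% to 47.4% of the UMIs of neutrophil-like cells, and with library totals in place of TMM the median log2 fold change of all 7939 genes tested moved from -0.16 to -1.44. On that scale Malat1 stood at -1.70, Gas5 at -1.68, Kcnq1ot1 at -3.20, Snhg1 at -2.75 and Neat1 at 2.66, each past the call rule. So were 6718 of the 7939 genes tested. For border macrophage-like cells the same change moved the median from -0.02 to -0.39 and Malat1 to -0.32 (adjusted p = 0.0387, edgeR). Neat1 alone of the members was higher in neutrophil-like cells on either scale.

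Kcnq1ot1 was scarce in neutrophil-like cells. It stood at 29.0, 10.9 and 26.5 CPM there in mice 1, 2 and 3, against 201, 203 and 216 in microglia-like cells and 148, 114 and 219 in border macrophage-like cells. The neutrophil-like range lay below the others, while the border macrophage-like range overlapped that of microglia-like cells. The log2 fold change was -1.93 ± 0.219 (SE, adjusted p = 3.87e-10, edgeR) for neutrophil-like cells and -0.10 ± 0.184 (SE, adjusted p = 0.789, edgeR) for border macrophage-like cells. The neutrophil-like values rest on few molecules: 24, 2 and 11 UMIs in the V3.0 libraries of mice 1, 2 and 3, and 0, 5 and 3 in the V3.1 libraries. In the V3.0 libraries of mice 1 and 3 the microglial markers also took their highest shares of neutrophil-like UMIs, 0.694% and 0.439%, against 0.212% to 0.430% in the other 4 libraries, and the part of such RNA in the Kcnq1ot1 values was not tested.

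Gas5 rose in border macrophage-like cells. It stood at 439, 509 and 479 CPM in mice 1, 2 and 3, which is 2.33 to 2.77 times the microglia-like level of the same mouse, and no border macrophage-like value came near the microglia-like range of 179 to 188. The log2 fold change was 1.76 ± 0.142 (SE, n = 3 mice, adjusted p = 1.34e-13, edgeR). At 2000 UMIs per cell, Gas5 was found in 52.6% of border macrophage-like cells (exact 95% interval 44.4% to 60.8%), 29.4% of microglia-like and 9.79% of neutrophil-like cells. In neutrophil-like cells it stood at 78.6, 38.8 and 51.0 CPM, below every microglia-like value, and the fitted difference was -0.40 ± 0.172 (log2, SE, adjusted p = 0.0413, edgeR), inside the fold threshold. This reading turned under 4 of 15 alternatives, where Gas5 was called lower: without mouse 1 (-0.67, adjusted p = 0.00680, edgeR), in the V3.1 libraries alone (-0.76), with classes from marker UMI shares (-0.77) and with library totals (-1.68).

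Snhg1 varied between mice. In border macrophage-like cells it stood at 29.6, 26.9 and 91.7 CPM, on 0, 8 and 1 UMIs in the V3.0 and 5, 4 and 12 in the V3.1 libraries, so that 2 mice were below the microglia-like range of 35.7 to 38.7 and mouse 3 was above it. The fitted difference was 0.52 ± 0.340 (log2, SE, adjusted p = 0.336, edgeR). In neutrophil-like cells it stood at 3.63, 6.22 and 7.56 CPM, a log2 fold change of -1.47 ± 0.431 (SE, adjusted p = 0.00321, edgeR), on at most 3 UMIs in any library. This call was lost without mouse 1 (log2 fold change -1.06, adjusted p = 0.0959), in the V3.0 libraries alone (-0.73) and with DESeq2 (-1.42, adjusted p = 0.0523).

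Of the 5 members, 2 were called higher in border macrophage-like cells (a call needed an adjusted p under 0.05 together with a log2 fold change above 0.58 in size), where 19.6% of 7939 genes were called either way. In neutrophil-like cells 1 was called higher and 2 lower, which is close to the background of 58.2% of genes called. CPM values did not overlap between the mice of border macrophage-like and microglia-like cells for 3 of 5 members (background 55.1%), and between neutrophil-like and microglia-like cells for 5 of 5 (background 91.2%).

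**Figure D1:**
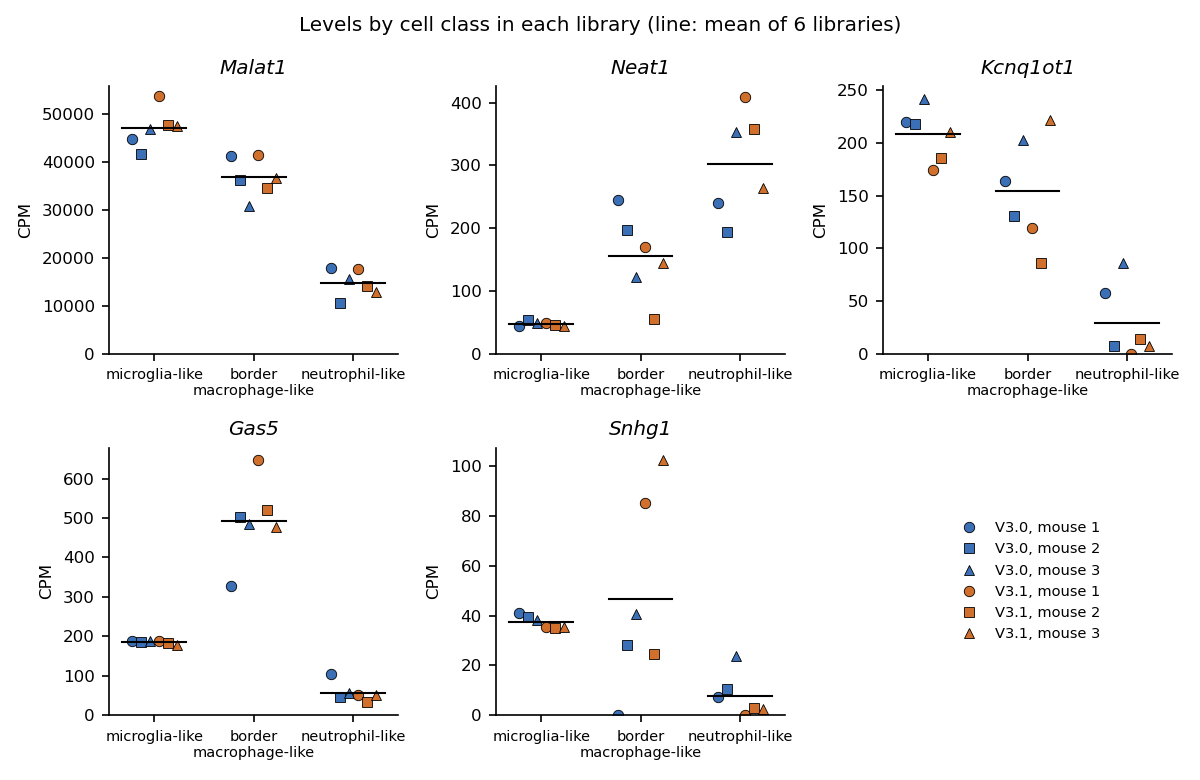
Level in CPM (linear axis from 0) of each member in microglia-like, border macrophage-like and neutrophil-like cells, with 1 point for each of the 6 libraries and a line at their mean. Neat1 lies between 44.0 and 52.8 CPM in microglia-like cells and between 194 and 408 in neutrophil-like cells, Gas5 lies between 327 and 648 in border macrophage-like cells, and Malat1, Kcnq1ot1 and Snhg1 have their lowest means in neutrophil-like cells.

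Genes of the same pathways were counted beside the members. Ribosomal protein genes were listed by symbol, and this list also holds Rps19bp1, which encodes a protein that binds Rps19. In border macrophage-like cells 77 of 79 ribosomal protein genes tested were called higher and none lower, with a median log2 fold change of 1.64 beside -0.02 over all genes. Among them were Rps19 (2.16) and Rpl38 (2.14), both with adjusted p under the threshold by edgeR. Of 10 snoRNA host lncRNAs tested, 4 were called higher and none lower, Gas5 among them. Zfas1, whose introns also carry box C/D snoRNAs, rose by 2.04 (log2, adjusted p = 1.39e-07, edgeR), from 27.5 to 29.9 CPM in microglia-like cells to 73.9 to 155, and Epb41l4aos rose by 1.68 (adjusted p = 4.32e-05). The fourth, Snhg8 (0.85, adjusted p = 0.00329, edgeR), was named after its values were seen. With library totals in place of TMM, 3 of the 10 snoRNA hosts and 76 of the 79 ribosomal protein genes were still called higher and none lower.

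In neutrophil-like cells 6 of the same 10 snoRNA hosts were called lower and none higher, beside 30.6% of all genes called lower. The 2 with the largest falls besides Snhg1 were Epb41l4aos (log2 fold change -2.26, adjusted p = 0.00102, edgeR) and Snhg12 (-1.34, adjusted p = 0.00358). The ribosomal protein list was split, with 10 of 79 genes called higher and 13 lower, Rps19bp1 among the lower ones. With library totals in place of TMM 10 of 10 snoRNA hosts were called lower, and 72 of 79 ribosomal protein genes were called lower and none higher. On that scale 6718 of all 7939 genes tested were called, only 902 of them higher, so most genes were called lower as well.

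Among proteins of the compartments that Malat1 and Neat1 occupy, few genes were called. Of 16 nuclear speckle proteins, 1 was called lower in border macrophage-like cells, the splicing factor Srsf6 (log2 fold change -0.60, adjusted p = 0.0387, edgeR). In neutrophil-like cells 4 were called lower, no more than the share of all genes called lower (30.6%), and these were led by Srsf7 (-1.05, adjusted p = 2.74e-06), Srsf6 (-0.77) and Srsf9 (-0.75). Of 12 paraspeckle proteins, none was called in border macrophage-like cells, and 1 was called lower in neutrophil-like cells, the cleavage factor subunit Cpsf6 (-0.80, adjusted p = 2.85e-04, edgeR). With library totals in place of TMM all 16 speckle and all 12 paraspeckle proteins were called lower in neutrophil-like cells. Most of all genes tested were called lower there on that scale, so these counts are not particular to the lists. Of 9 nonsense-mediated decay factors, 4 were called higher in neutrophil-like cells by TMM, whereas 5 were called lower and none higher with library totals.

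Of the genes around Kcnq1ot1, 6 were tested between classes. Cdkn1c, the cell cycle inhibitor that Kcnq1ot1 silences on the paternal chromosome, stood at 24.2 ± 3.62 CPM in microglia-like cells (mean ± SD, n = 3 mice) and at 0.403 ± 0.698 in neutrophil-like cells, with a log2 fold change of -4.26 (adjusted p = 2.89e-05, edgeR). The tetraspanin gene Cd81 was called lower in both classes, by -0.70 in border macrophage-like cells and -1.78 in neutrophil-like cells, and the tetraspanin gene Tspan32 was called higher in both, by 1.18 and 2.40. Kcnq1ot1 and Cdkn1c were thus both low in neutrophil-like cells.

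The deposited matrices include many barcodes with few genes. Of the 29412 barcodes, 9646 held fewer than 1000 genes and 19766 held 1000 or more. The share below 1000 genes was 23.1% to 29.8% of a library in 5 libraries and 78.4% in the V3.0 library of mouse 3. These shallow barcodes had a median of 2.28% to 4.82% mitochondrial UMIs per library, against 0.769% to 2.05% above, and 4.93% to 9.31% of them passed the marker rule for neutrophils, against 0.951% to 2.21%.

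Malat1 took a larger share of UMIs in barcodes under 1000 genes in 6 of 6 libraries. In the V3.0 libraries of mice 1, 2 and 3 it took 6.39%, 4.52% and 6.41% of UMIs below 1000 genes and 4.32%, 4.03% and 4.49% above. In the V3.1 libraries it took 10.9%, 8.68% and 7.49% below and 5.13%, 4.56% and 4.60% above. The ratio ran from 1.12 in the V3.0 library of mouse 2 to 2.13 in the V3.1 library of mouse 1, and over the 6 libraries the lowest shallow value overlapped the upper values of the deeper barcodes. With library as a block, the log2 fold change was 0.78 ± 0.225 (SE, n = 6 libraries of 3 mice, adjusted p = 0.0127, edgeR).

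Kcnq1ot1 and Neat1 moved the same way. Kcnq1ot1 stood at 311, 254 and 189 CPM below 1000 genes in the V3.0 libraries of mice 1, 2 and 3 (210, 208 and 231 above) and at 331, 341 and 380 in the V3.1 libraries (164, 175 and 203 above). It was higher in 5 of 6 libraries, the exception being the V3.0 library of mouse 3, and the log2 fold change was 0.70 ± 0.154 (SE, adjusted p = 0.00329, edgeR). Neat1 stood at 173, 150 and 88.9 CPM below 1000 genes in the V3.0 libraries (55.1, 71.7 and 68.7 above) and at 211, 169 and 148 in the V3.1 libraries (68.7, 61.7 and 53.7 above). It was higher in 6 of 6 libraries, the lowest shallow value of 88.9 lay above the highest deeper value of 71.7, and the log2 fold change was 1.40 ± 0.155 (SE, adjusted p = 3.06e-05, edgeR).

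Gas5 and Snhg1 were lower in shallow barcodes. Gas5 stood at 108, 105 and 187 CPM below 1000 genes in the V3.0 libraries of mice 1, 2 and 3 (184, 190 and 190 above) and at 135, 111 and 137 in the V3.1 libraries (190, 185 and 176 above). It was lower in 6 of 6 libraries, though in the V3.0 library of mouse 3 by a ratio of only 0.984, and the log2 fold change was -0.41 ± 0.126 (SE, adjusted p = 0.0172, edgeR). Snhg1 ran from 14.7 to 35.1 CPM below and from 33.3 to 39.5 above, lower in 6 of 6 libraries, with a log2 fold change of -0.42 ± 0.157 (SE, adjusted p = 0.0401, edgeR). Both fold changes were inside the fold threshold.

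All 3 nuclear members and neither snoRNA host were called, 3 of 5 members beside 27.8% of 10596 genes called either way and 11.8% called higher. CPM values did not overlap between the barcode classes for 1 member, Neat1 (background 16.1%). The calls leaned on the mice: leaving out 1 mouse gave between 1 and 4 called members, Malat1 and Kcnq1ot1 losing their calls without mouse 1 (0.72, adjusted p = 0.138, and 0.62, adjusted p = 0.0597) and without mouse 2 (0.82, adjusted p = 0.117, and 0.66, adjusted p = 0.0637), and Gas5 gaining one without mouse 3 (-0.60). Without the V3.0 library of mouse 3, the log2 fold changes were 0.78 for Malat1, 1.54 for Neat1, 0.84 for Kcnq1ot1, -0.55 for Gas5 and -0.54 for Snhg1.

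The same comparison was made within each kit. In the V3.1 libraries alone 4 of 5 members were called, beside 37.9% of 11592 genes, and the log2 fold changes were 0.89 for Malat1 (adjusted p = 5.34e-05, edgeR), 0.95 for Kcnq1ot1 (adjusted p = 3.53e-15) and -0.77 for Snhg1 (adjusted p = 9.10e-05). In the V3.0 libraries alone Malat1 stood at 0.60 (adjusted p = 0.412) and Kcnq1ot1 at 0.37, and 1 of 5 members was called, Neat1 at 1.22 (adjusted p = 0.0366), beside 2.20% of 10613 genes. The test of the difference between kits called none of 10596 genes by edgeR, with 996 at an unadjusted p under 0.05. For Kcnq1ot1 it gave 0.58 (log2, adjusted p = 0.530) and for Snhg1 -0.59 (adjusted p = 0.530).

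**Figure D2:**
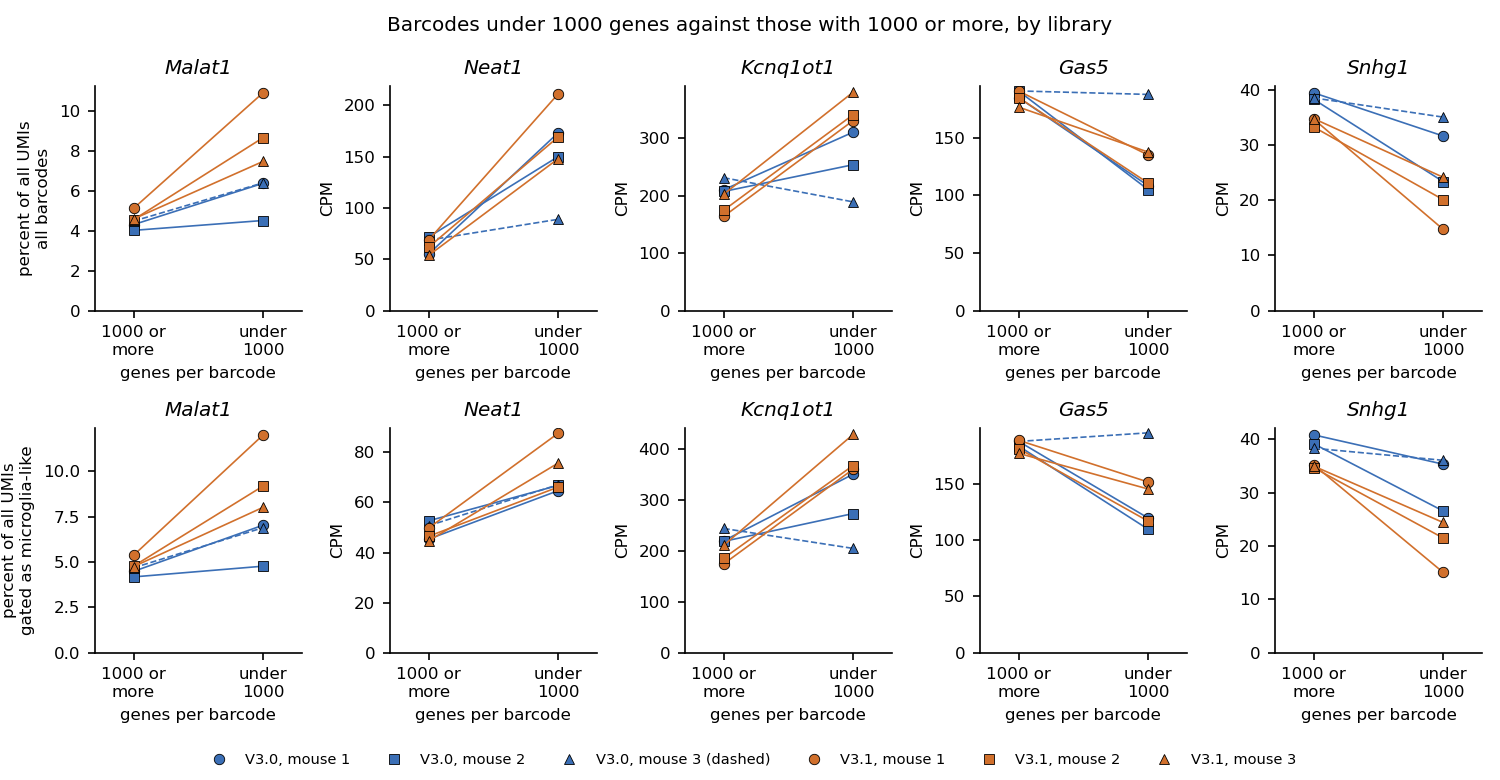
Level of each member (percent of all UMIs for Malat1, CPM for the others, linear axes from 0) in barcodes with 1000 or more genes and under 1000 genes, with a line joining both values of each of the 6 libraries, for all barcodes (top) and for those that passed the marker rule for microglia (bottom). In the top row the values under 1000 genes are higher for Malat1 and Neat1 in 6 of 6 libraries and for Kcnq1ot1 in 5 of 6, and lower for Gas5 and Snhg1 in 6 of 6; the dashed line is the V3.0 library of mouse 3.

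Within barcodes that passed the marker rule for microglia, 8225 below and 18966 above 1000 genes, the change in Neat1 was smaller. Neat1 stood at 64.7 to 87.6 CPM below 1000 genes and 44.6 to 52.6 above, a log2 fold change of 0.67 against 1.40 over all barcodes. Malat1 (0.83), Neat1 and Kcnq1ot1 (0.76) were called there as well, 3 of 5 members beside 27.5% of genes. Gas5 (-0.31, adjusted p = 0.0644, edgeR) and Snhg1 (-0.36, adjusted p = 0.0830) no longer passed the test. Within barcodes that passed the rule for neutrophils, Neat1 stood at 307 to 810 CPM below 1000 genes and 161 to 364 above, higher below in 6 of 6 libraries. In the V3.0 library of mouse 3 the ratio was only 1.02, at 307 against 300 CPM on 55 and 33 UMIs.

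The shift in Malat1 was not shared by every shallow barcode. Of the shallow barcodes that passed the marker rule for microglia, 44.1% held a larger Malat1 share than the 95th percentile of deeper barcodes in the same class, 14.0% held a smaller share than the 5th percentile, and 41.9% lay between. The share above the 95th percentile ran from 23.3% in the V3.0 library of mouse 2 to 75.7% in the V3.1 library of mouse 1. Barcodes with no Malat1 UMI made up 0.170% of the shallow and 0.0158% of the deeper ones.

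Over finer steps of gene number, the mean of Malat1 was lower at each step from 600 to 2499 genes. Among barcodes that passed the marker rule for microglia, it averaged 83354 ± 28611 CPM (SD, n = 6 libraries) at 600 to 799 genes, 60388 ± 8905 at 1000 to 1249 genes, 50297 ± 3435 at 1500 to 1749 genes and 42613 ± 3967 at 2000 to 2499 genes. The spread between libraries was wide below 1000 genes and narrow above. Neat1 in the same barcodes was level across 1000 genes. It averaged 66.6 ± 10.8 at 800 to 999 genes, 65.3 ± 29.5 at 1000 to 1249 and 66.5 ± 18.6 at 1250 to 1499. At 400 to 599 genes Neat1 averaged 81.6 ± 17.7. Further up it averaged 52.7 ± 4.99 at 1500 to 1749 genes, 39.2 ± 5.43 at 2000 to 2499 and 47.0 ± 9.04 at 2500 to 4999 (n = 5 libraries). In all barcodes Gas5 averaged 128 ± 25.7 at 800 to 999 genes, 166 ± 26.5 at 1000 to 1249 and 188 ± 2.53 at 1500 to 1749. It stood at 179 ± 11.3 at 2000 to 2499 genes and at 225 ± 33.0 at 2500 to 4999. With the marker rule for microglia applied, Gas5 did not rise at every step. It averaged 182 ± 36.3 at 0 to 399 genes, 130 ± 34.01 at 400 to 599 and 150 ± 39.7 at 800 to 999. Above that it averaged 193 ± 49.7 at 1000 to 1249 genes and 188 ± 3.12 at 1500 to 1749. At 2000 to 2499 genes it averaged 178 ± 8.997, and at 2500 to 4999 it averaged 190 ± 17.3 (n = 5 libraries).

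**Figure D3:**
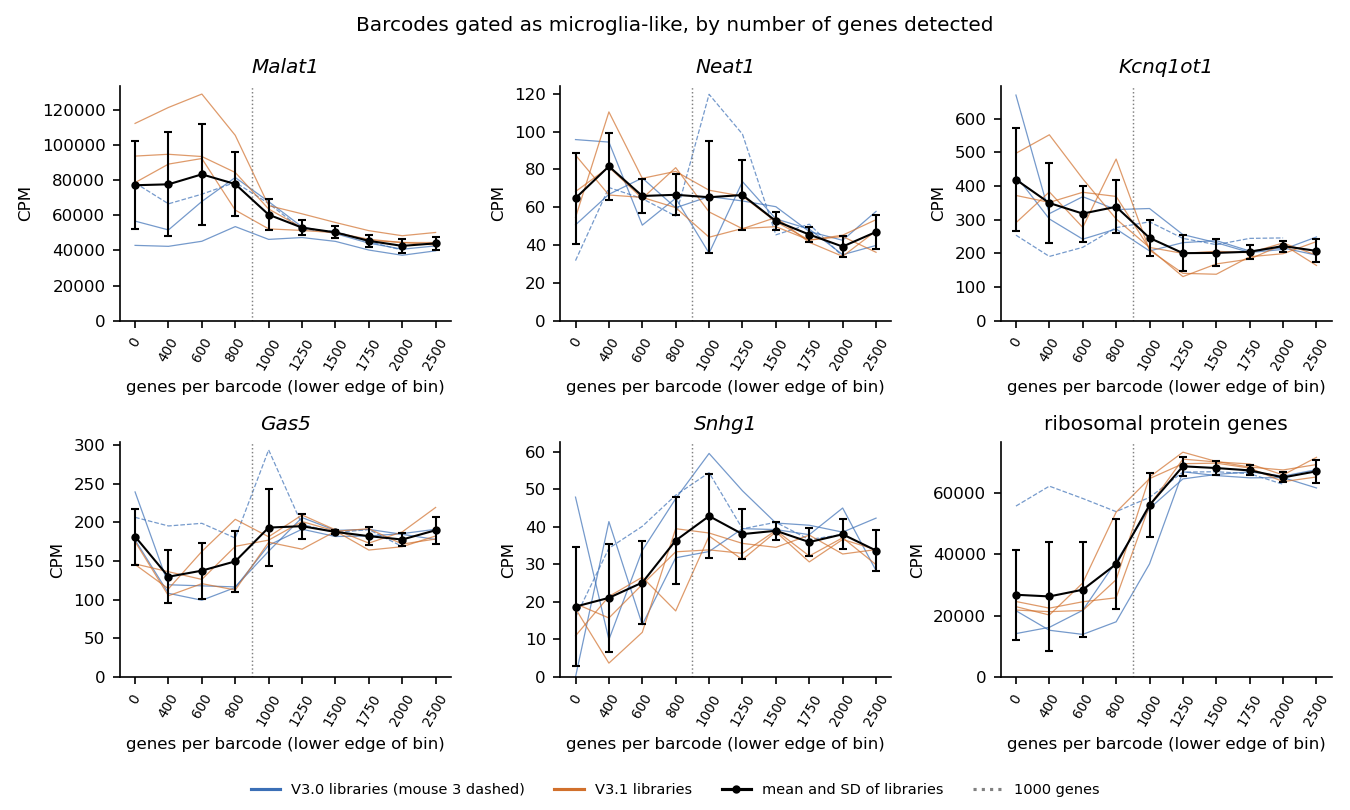
Level in CPM (linear axis from 0) of each member, and of ribosomal protein genes summed, in barcodes that passed the marker rule for microglia, by bins of the genes detected per barcode, with a thin line per library and the mean and SD over libraries in black. Malat1 spreads from 42349 to 121440 over the libraries at 400 to 599 genes and from 45176 to 55934 at 1500 to 1749 genes.

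The mitochondrial share was set beside the members as well. When the shallow barcodes that passed the rule for microglia were split in each library into 3 groups of equal size by mitochondrial share, Malat1 averaged 82757 ± 23973, 83358 ± 27397 and 74112 ± 28893 CPM (SD, n = 6 libraries) from the lowest to the highest mitochondrial group. Kcnq1ot1 averaged 302 ± 38.0, 344 ± 111 and 353 ± 120, and Snhg1 averaged 31.6 ± 9.67, 26.6 ± 10.7 and 20.4 ± 7.89. Within libraries the direction differed. From the lowest to the highest group, Malat1 went from 97817 to 45744 CPM in the V3.0 library of mouse 3. In the V3.1 library of that mouse it went from 65660 to 87015. Kcnq1ot1 went from 251 to 178 and from 305 to 551 in the same libraries. Snhg1 was lower in the highest group than in the lowest in every library except V3.0 of mouse 3, where it went from 34.1 to 35.9. No test was run on these groups. Ribosomal protein genes together stood at 40727 ± 14693 CPM in the lowest and 23338 ± 17767 in the highest group.

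Ribosomal protein genes were lower in shallow barcodes, as the snoRNA-hosting members were. All 79 tested were called lower below 1000 genes, with a median log2 fold change of -1.13 beside 0.01 over all genes, led by Rps27l (-1.42), a paralog of Rps27, Rps28 (-1.32) and Rpl3 (-1.32). In the V3.0 library of mouse 3 their summed level below 1000 genes was 0.915 times that above, against 0.272 to 0.523 times in the other 5 libraries, and this was also the library where Gas5 hardly differed. In the V3.0 libraries alone none of the 79 was called by edgeR, with a median of -0.97, where 233 of 10613 genes were called in all. Of 17 snoRNA hosts tested, 3 were called higher and 1 lower: Snhg14 rose by 1.47 (adjusted p = 6.59e-04, edgeR), Snhg10 by 0.76 (adjusted p = 0.0119) and Snhg20 by 0.65 (adjusted p = 0.00120), and Snhg6, named after its values were seen, stood at -0.88 (adjusted p = 0.00833). Snhg14 and Snhg10 were sparse, at 2.11 to 28.3 and 5.52 to 9.06 CPM over the libraries below 1000 genes. Without the V3.0 library of mouse 3, and with library totals in place of TMM, 3 hosts were called lower.

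Some other nuclear lncRNAs were called higher as the nuclear members were, though not in each kit. Of 10 tested, 6 were called higher in shallow barcodes and none lower, and without the 3 members 3 of 7, beside 11.8% of all genes called higher. In the V3.0 libraries alone 1 of the 10 was called higher, and this was the member Neat1. In the V3.1 libraries alone 7 were called higher, the 3 members among them, and 1 lower. Dleu2, a host of microRNAs in its primary transcript, stood at 1254 ± 220 CPM below and 738 ± 94.3 above 1000 genes (SD, n = 6 libraries), a log2 fold change of 0.88 (adjusted p = 0.00115, edgeR). The others, named after their values were seen, were Firre (0.73, adjusted p = 0.00279), a nuclear-retained RNA of the X chromosome, and Jpx (0.62, adjusted p = 0.00557), an activator of Xist. Among proteins, Hnrnpk of the paraspeckle fell by 0.77 (adjusted p = 0.00212, edgeR), and the speckle proteins Srsf9 and Srsf4 fell by 1.01 and 0.91. Of 10 nonsense-mediated decay factors Upf2 alone was called, higher by 0.72 (adjusted p = 0.00177). Of the genes around Kcnq1ot1, Cdkn1c fell by 0.61 over all barcodes (adjusted p = 0.00588), while Tspan32, named after its values were seen, rose by 0.74. Within barcodes that passed the marker rule for microglia, 3 of 7 of these genes tested were called higher and 0 lower. Of all genes, 27.5% were called there either way. Cdkn1c was thus not called lower in these barcodes. The part of the mix of cell classes in the fall of Cdkn1c was not tested.

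Between kits, the members differed little in microglia-like cells, and none of the 5 was called, beside 3.06% of 12012 genes. Malat1 stood at 44830, 41781 and 46833 CPM in the V3.0 libraries of mice 1, 2 and 3 and at 53738, 47736 and 47548 in the V3.1 libraries. The kits did not overlap, the ratio within a mouse was 1.20, 1.14 and 1.02, and the log2 fold change was 0.18 ± 0.0679 (SE, n = 3 libraries a kit, adjusted p = 0.104, edgeR). Kcnq1ot1 stood at 220, 218 and 242 with V3.0 and at 175, 186 and 210 with V3.1. It did not overlap either and went the other way, with ratios of 0.794, 0.851 and 0.870 and a log2 fold change of -0.23 ± 0.0800 (SE, adjusted p = 0.0751, edgeR).

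Snhg1 was lower with V3.1 in every mouse, at 41.1, 39.3 and 38.1 CPM with V3.0 and 35.4, 34.9 and 35.2 with V3.1 (log2 fold change -0.16 ± 0.0774, SE, adjusted p = 0.188, edgeR). Neat1 and Gas5 overlapped between kits. Neat1 stood at 44.0, 52.8 and 48.6 with V3.0 and 48.5, 46.2 and 44.5 with V3.1 (-0.05 ± 0.0880, SE, adjusted p = 0.746), and Gas5 at 187, 184 and 188 against 189, 183 and 178 (-0.01 ± 0.0621, SE, adjusted p = 0.941). The 3 members without overlap compare with a background of 33.2% of genes. With mouse as a block, Malat1 (0.17, adjusted p = 0.00542, edgeR) and Kcnq1ot1 (-0.24, adjusted p = 0.00156) passed the adjusted p but not the fold threshold, and 557 genes were called in place of 367. At an unadjusted p under 0.05, 3528 genes stood in the fit without the block, and DESeq2 called 285 genes and no member.

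Of the wider lists, 2 of 17 snoRNA hosts and 1 of 10 nonsense-mediated decay factors were called between kits. Snhg14, a long imprinted host transcript, was higher with V3.1, at 4.96 to 8.06 CPM against 1.24 to 2.68 (log2 fold change 1.58, adjusted p = 0.00237, edgeR). Snhg17 was lower (-0.67, adjusted p = 0.0120), as was the decay factor Smg9 (-0.69, adjusted p = 4.65e-04). No nuclear lncRNA, speckle, paraspeckle or ribosomal protein gene was called.

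The kit difference did not differ detectably by cell class for any member after adjustment. The test of that difference called 1 of 6127 genes (0.0163%) for border macrophage-like cells and none for neutrophil-like cells by edgeR, with 377 genes at an unadjusted p under 0.05 in the latter. Kcnq1ot1 in neutrophil-like cells came nearest among members (log2 difference -2.29, adjusted p = 0.328), on the few UMIs given above. For Snhg1 in border macrophage-like cells it was 1.85 (adjusted p = 0.976).

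**Figure D4:**
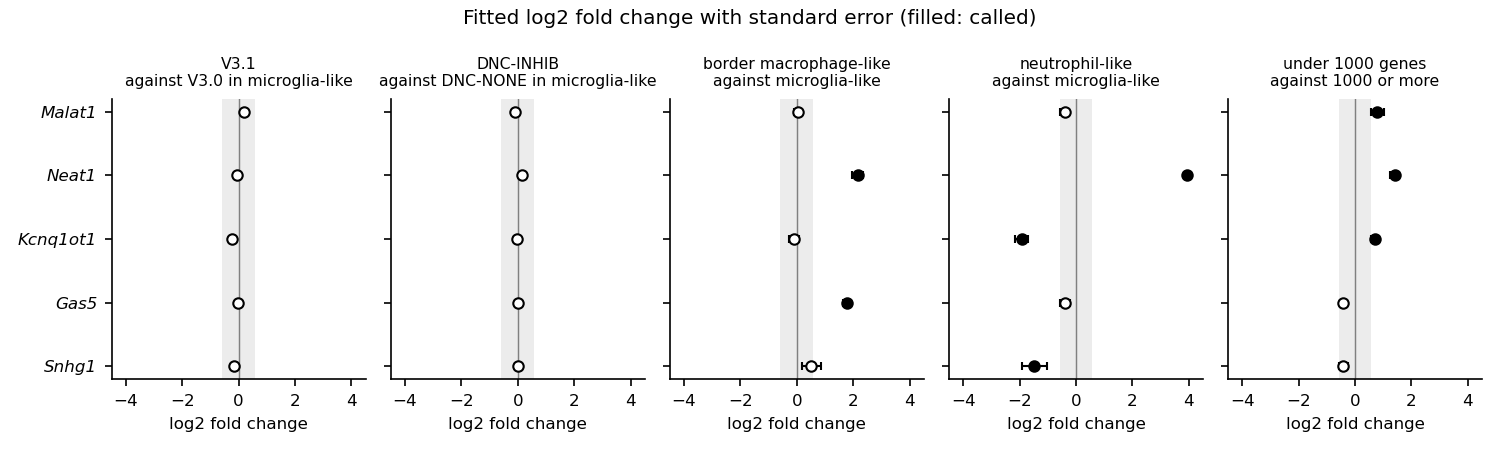
Fitted log2 fold changes of each member with standard errors in 5 comparisons, V3.1 against V3.0 kits, DNC-INHIB against DNC-NONE, border macrophage-like and neutrophil-like against microglia-like cells, and barcodes under 1000 genes against the rest. Filled points were called and the grey band spans a log2 fold change of 0.58 either way; Neat1 stands farthest out, at 3.95 in neutrophil-like cells.

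The inhibitor cocktail could be compared in 1 mouse against 2. In microglia-like cells Malat1 was lowest in the treated mouse 2, at 44531 CPM against 48632 and 47431, and the log2 fold change was -0.10 ± 0.0855 (SE, adjusted p = 0.918, edgeR). Neat1 was highest in mouse 2, at 49.8 against 45.9 and 45.2 (0.14 ± 0.105, SE, adjusted p = 0.886). The other members stood between -0.02 and 0.02 (adjusted p 0.991 to 0.995). None of the 5 members was called, beside 0.710% of 13093 genes, and 955 genes had an unadjusted p under 0.05. The spread in this fit comes from the 2 untreated mice, and the treated mouse is assumed to vary as they do.

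Within the microglia-like cells, the 11 clusters differed in the members although none of these genes was used to form them. A cluster of 249 cells with a median of 1071 genes and 1.27% ribosomal protein UMIs stood apart, at 88492 ± 16369 CPM of Malat1 (SD, n = 5 libraries with at least 20 cells) and 435 ± 141 of Kcnq1ot1. The other 10 clusters lay between 40708 and 55930 for Malat1 and between 154 and 256 for Kcnq1ot1. Gas5 was lowest in that cluster, at 112 ± 38.1 against 167 to 228 elsewhere, so it carried the pattern of the shallow barcodes.

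Neat1 ranged from 27.5 to 111 over the clusters. It stood at 111 ± 47.3 CPM in 194 cells led by the chemokine gene Ccl4, at 82.7 ± 50.4 in the cluster of 249 cells, at 75.2 ± 7.11 in 3439 cells led by Klf2, at 67.0 ± 9.13 in 1034 cells led by the interferon-induced gene Ifit3, and at 27.5 ± 4.44 in 3292 cells led by Tmem44. The range over libraries in the Klf2 cluster, 61.0 to 80.3, lay above that in the Tmem44 cluster, 21.9 to 32.4. Snhg1 was also highest in the Ccl4 cluster, at 74.0 ± 24.8, against 22.8 to 42.1 in the others, and Gas5 was highest in the Klf2 cluster, at 228 ± 17.2. The Tmem44 cluster held 1438, 987 and 281 cells of the V3.0 libraries of mice 1, 2 and 3 and 123, 131 and 332 of the V3.1 libraries. These values are descriptions with no test.

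**Figure D5:**
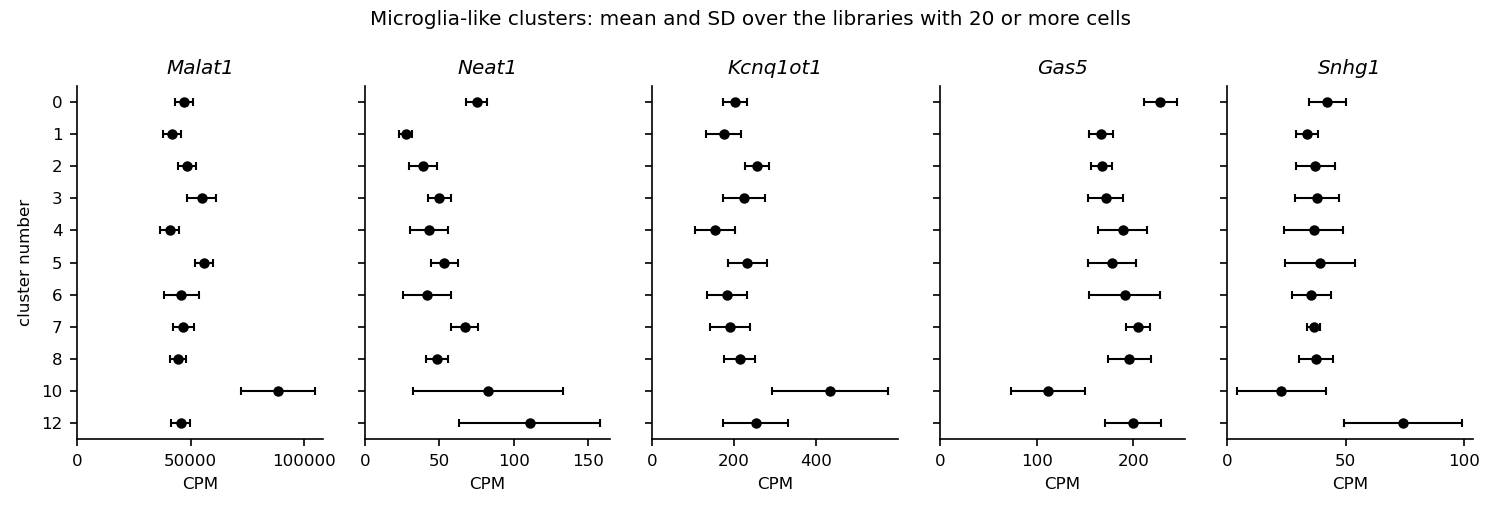
Level in CPM (linear axis from 0) of each member in the 11 microglia-like clusters, as the mean and SD over the libraries with at least 20 cells in the cluster. Cluster 10 holds the highest mean for Malat1 (88492) and Kcnq1ot1 (435) and the lowest for Gas5 (112), and cluster 12 the highest for Neat1 (111) and Snhg1 (74.0).

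From cell to cell the members were all but unrelated. Over 18198 microglia-like cells drawn to 2000 UMIs, the highest correlation between any 2 was Pearson's r = 0.108 for Malat1 and Kcnq1ot1, with 0.0746 to 0.153 within a library, and Gas5 and Snhg1 had r = 0.00601. These cells share libraries, and the counts of 4 of the genes are sparse.

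Across the 18 sums of 3 cell classes in 6 libraries, each member had other genes with nearly the same profile, among 2972 genes with a mean of at least 50 CPM. For Malat1 these were Rgs10 (Pearson's r = 0.984), Zmiz1 (0.980) and Cnbp (0.978). For Neat1 they were Slfn2 (0.938), the leukocyte phosphatase gene Ptprc (0.937) and the inhibitory receptor gene Pirb (0.929), and for Kcnq1ot1 Eprs (0.958), Irf5 (0.939) and Ssbp4 (0.937). For Gas5 they were Rack1 (0.982), Tmem176b (0.980) and Rpl12 (0.979). Rack1 and Rpl12 encode parts of the ribosome, and Rack1 is the gene whose 10-base pyrimidine start was shown beside that of Gas5. For Snhg1 the nearest were Scamp3 (0.835), Wdr83os (0.822) and Rsl24d1 (0.813), at lower values than for any other member. The 18 sums fall into 3 cell classes and share mice and libraries, so these correlations describe the class profile. The values differed over the 6 microglia-like sums alone, where Pearson's r with Gas5 was -0.426 for Rack1, -0.554 for Tmem176b and -0.607 for Rpl12. Over all 15 named genes it ran there from -0.750 for Scamp3 with Snhg1 to 0.841 for Cnbp with Malat1, and 7 of the 15 were negative.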

How the data were processed

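Sorted brain myeloid cells of 3 mice were sequenced in 6 libraries (10X Genomics 3′ kits V3.0 and V3.1). The authors counted UMIs with Cell Ranger 5.0.0 on mm10, per the labels and methods, and deposited counts per gene and barcode, not normalized, on which everything here was computed. The members and gene lists were chosen with earlier results of these data known. Barcodes were kept from 1000 to 4000 genes, up to 12000 UMIs and up to 15% mitochondrial share, and were clustered (scanpy 1.11.5, Leiden, resolution 1, 2000 variable genes, 20 components) without the members and listed lncRNAs, and clusters were named by marker genes, so class names are rebuilt here. Scrublet called 4 cells (0.0203%), too few to have worked, so no doublet was removed in the main values. For all barcodes, a rule on marker UMIs gave the classes.

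Counts were summed per library or mouse and tested with edgeR 4.0.16 (quasi-likelihood, TMM, filterByExpr, Benjamini-Hochberg over all genes tested), with mouse as a block between classes, library between gene-number groups and no block between kits; DESeq2 1.42.0 was an alternative. A call needed an adjusted p under 0.05 together with a log2 fold change above 0.58 in size. Same-numbered libraries come from the same mouse by the labels, and their deviations from the kit means correlated at 0.179, 0.429 and 0.0835 (500 genes). Besides the members, up to 3 called genes per list with the largest change in the same direction in every mouse or library were named, and the 3 genes most like each member. A gene that met this rule is not reported here. On simulated counts, 86.7% of genes changed by a log2 fold of 1 were recovered between kits, 73.6% in neutrophil-like cells, 87.3% between gene-number groups and 73.9% for inhibitors. Intervals of shares are exact (Clopper-Pearson, 95%) and cover counting error only. Sequences are from GENCODE vM21 and RefSeq on GRCm38; 4 of 5 members had a RefSeq start.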

Additional observations from a re-analysis of the deposited data

Results flagged for a closer look

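Over the 45 groups of 6 libraries compared for the members, 1 value stood far from the rest. Gas5 in neutrophil-like cells stood at 105.281 CPM in the V3.0 library of mouse 1, on 44 UMIs, with the next library at 54.9584 and the lowest at 33.7589. The gap to the next library was 0.704 of the whole range, above Dixon's 95% critical value for 6 samples, and about 1 in 20 groups is marked in this way by chance. The microglial markers took 0.694% of neutrophil-like UMIs in that library, the highest of the 6, and their part in the value was not tested. Without mouse 1 the fitted log2 fold change of Gas5 in neutrophil-like cells was -0.67, which was called lower, against -0.40 with it, which was not.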

How the results depend on the processing

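Over 310 member values under alternatives, 273 kept direction and side of the threshold, 9 came to pass it, 14 ceased to and 14 changed sign, the last all among values that were not called. Between kits, 557 genes were called with mouse as a replicate block and 159 to 434 when 1 mouse was left out, against 367, and Neat1 (-0.1638 to 0.043) and Gas5 (-0.0294 to 0.0183) changed sign over these, without replicate 2 and without replicate 3. The block changed no call of a member. For border macrophage-like cells, 916 genes were called in the V3.0 libraries against 1553. Malat1 changed sign there without replicate 2 (-0.005 to 0.075 over the mice left out), with sums per library (-0.0581), in V3.0 (-0.0767) or V3.1 libraries (-0.0155), with no filter on low counts (-0.1033) and with library totals (-0.324). So did Kcnq1ot1 without replicate 2 (-0.305 to 0.118) and Snhg1 without replicate 3 (-0.0874 to 0.9625) and in V3.0 libraries (-0.6191), while in V3.1 libraries Snhg1 passed the call rule at 1.23. For neutrophil-like cells, 5 members were called with classes from marker UMI shares and 5 with library totals, against 3, and 2792 genes in the V3.0 libraries against 4624. The 5 with library totals stood beside 6718 of all 7939 genes called. The share of all genes called with classes from marker UMI shares is not given here.

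Between gene-number groups, leaving out 1 mouse gave 1165 to 4367 genes and 1 to 4 members, against 2941 and 3. The V3.0 libraries gave 233 genes and 1 member, a threshold of 500 genes 1960 genes and a threshold of 1500 genes 716 genes and 1 member. For inhibitors DESeq2 called 16 genes against 93. In that comparison Gas5 in V3.0 libraries (-0.0065) and Snhg1 in V3.0 (-0.0107) and V3.1 libraries (-0.011) changed sign. The share of calls that were higher moved with the scaling: from 956 of 1553 to 608 of 2274 with library totals and 1262 of 1581 with DESeq2 for border macrophage-like cells, from 2197 of 4624 to 902 of 6718 and 2770 of 4477 for neutrophil-like cells, and from 1250 of 2941 to 792 of 3098 with library totals for gene-number groups. Without the V3.0 library of mouse 3, an alternative added after the data were seen, 320 genes were called between kits, 1468 and 4566 between classes and 4258 between gene-number groups. The cause of these changes was not tested. Depth limits Snhg1 and Kcnq1ot1 in neutrophil-like cells and all sparse members in the 152 border macrophage-like cells.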
